A study of Mus musculus with 16 samples.

Results

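The 10 genes read as antigen presentation and as resident macrophages of the brain's borders were followed through brain RNA of young mice. They comprise 5 genes of major histocompatibility complex (MHC) class II, namely Cd74, H2-Aa, H2-Ab1, H2-Eb1 and H2-DMa, and 5 genes used as markers of border macrophages, namely Mrc1, Pf4, F13a1, Cbr2 and Ms4a7. They were taken by symbol, through the Ensembl identifiers of GRCm38, and are 10 of the 49671 genes counted. The rule uses symbols and no measured value.

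The study sequenced 16 brains, 1 library for each C57BL/6 mouse, in 4 groups of 4. Pregnant dams received lipopolysaccharide (LPS), a bacterial cell wall component that activates innate immunity, or saline by intraperitoneal injection at gestation day 16. Offspring described as male had their own injection, LPS or saline, on day 30 after birth, and the brains were taken on day 32. The saline-saline group had saline at both times, LPS-saline had prenatal LPS only, saline-LPS had pubertal LPS only, and LPS-LPS had both. The labels do not spell out which injection each name puts first. The dam's injection was read as the first; if the order were reversed, the words prenatal and pubertal would swap. Litters and LPS doses are not given, so mice may share a dam, and the spread between these animals is all that p-values measure.

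Class II molecules are pairs of an alpha and a beta chain that carry peptides from taken-up proteins to the surface of antigen-presenting cells, where CD4 T cells read them. The invariant chain, encoded by Cd74, holds new class II molecules out of the way of other peptides until cathepsins degrade it, and the H2-DM heterodimer then exchanges the remaining fragment for an antigen peptide. In the healthy brain most parenchymal microglia carry little class II, while macrophages of the meninges, the perivascular spaces and the choroid plexus include class II-rich cells. Those border macrophages also carry the mannose receptor Mrc1 and the other marker genes followed here.

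Class II genes share short elements close to the start of transcription, among them an X box and a Y box, which were searched for because they set this gene group apart by sequence. The windows were RefSeq promoters of GRCm38.p6, with 250 bases before and 50 bases after each start, and 8 of the 10 genes were matched. Cd74 and H2-Ab1 were not matched. The motifs were CTGATTGG (a longer Y box), its inner core ATTGG and an X box core of 10 letters with open positions, on both strands. Among 32851 promoters, 4.1% held CTGATTGG, 37.4% held ATTGG and 3.54% held the X box core. CTGATTGG was found in H2-Aa, 51 bases before the start, and in H2-Eb1, 62 bases before it. H2-Eb1 also held the X box core 91 bases before the start and ATTGG on the opposite strand. The 160 bases before each start are shown 5′ to 3′ on the gene's strand for these class II genes, with motif matches in capitals; H2-Aa lies on the minus strand (chr17:34287824-34287983) and H2-Eb1 on the plus strand (chr17:34305707-34305866).
H2-Aa: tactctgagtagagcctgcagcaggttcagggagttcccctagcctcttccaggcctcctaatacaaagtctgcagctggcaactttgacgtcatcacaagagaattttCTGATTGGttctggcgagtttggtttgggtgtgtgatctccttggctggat
H2-Eb1: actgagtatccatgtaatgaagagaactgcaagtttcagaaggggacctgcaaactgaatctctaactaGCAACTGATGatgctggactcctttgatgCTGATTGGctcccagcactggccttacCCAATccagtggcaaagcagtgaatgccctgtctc
Of the other matched genes, H2-DMa, Mrc1, Pf4, F13a1 and Ms4a7 held ATTGG in at least 1 of their listed promoters, and Cbr2 held none of the motifs. A listed second start of Ms4a7 also held the X box core. A match describes these letters only.

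All libraries were deep enough to count every one of the genes, although several were scarce. Libraries held 25729919 to 38571036 counts in genes, so that 1 read was worth at most 0.0389 CPM (counts per 1000000 counts in genes) and 3 counts at most 0.117 CPM. All 10 genes passed the filter on low counts that left 18875 genes to test. Neuronal transcripts were abundant (Snap25 averaged 1449 CPM), as the tissue label has it. Some libraries stood apart. LPS-LPS 3, replicate 3 of that group, had 503 CPM of Xist, which females make, and no reads of Ddx3y from the Y chromosome, against its male label. LPS-LPS 1 held the pituitary hormone Gh at 503 CPM and saline-LPS 1 at 44.1 CPM. The cerebellar granule cell gene Gabra6 was under 1 CPM in 8 libraries and between 2.51 and 70.4 CPM in the other 8, and every group held libraries of both kinds. The tissue taken may therefore differ between libraries, which was not tested.

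None of the 10 genes passed an adjusted p of 0.05 in any of 8 comparisons with edgeR's quasi-likelihood test, and DESeq2 called none of them. DESeq2 gave no adjusted p for 10 of its 80 tests of these genes, among them Ms4a7 for averaged prenatal LPS, for LPS-saline and LPS-LPS against saline-saline and for LPS-LPS against saline-LPS, so it says nothing on Ms4a7 there. The shares of all tested genes that passed with edgeR were 7.82% for prenatal LPS averaged over the pubertal injection, 0.18% for LPS-saline against saline-saline, 0.609% for LPS-LPS against saline-LPS and 6.56% for LPS-LPS against saline-saline. They were 0% for saline-LPS against saline-saline, for LPS-LPS against LPS-saline, for pubertal LPS averaged over the prenatal injection and for the interaction. At an unadjusted p under 0.05, 1 of the 10 genes passed for prenatal LPS averaged (23.2% of all tested genes), 0 for LPS-saline against saline-saline (13.2%), 1 for LPS-LPS against saline-LPS (14%) and 2 for LPS-LPS against saline-saline (21.9%). The counts were 1 for saline-LPS against saline-saline (2.83%), 0 for LPS-LPS against LPS-saline (4.01%), 2 for pubertal LPS averaged (5.02%) and 0 for the interaction (2.13%). In RNA of mixed brain tissue, fewer cells of a type and less RNA per cell cannot be told apart.

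Levels between genes were compared per kilobase of exon, from the exon union of GENCODE M21. H2-DMa was highest at 3.25 ± 0.329 CPM per kb (mean ± SD over 16 libraries) and exceeded Cd74 in 16 of 16 libraries. Cd74 at 1.58 ± 0.331 and Pf4 at 1.58 ± 0.28 CPM per kb were not separated, Cd74 being above Pf4 in 9 of 16. The classical class II chains had lower means than both. Cbr2 at 1.13 ± 0.203, Mrc1 at 1.08 ± 0.14, H2-Eb1 at 0.977 ± 0.182 and H2-Ab1 at 0.932 ± 0.224 CPM per kb formed a run in which each exceeded the next in only 8 to 10 of 16 libraries. F13a1 at 0.551 ± 0.0638, H2-Aa at 0.37 ± 0.0864 and Ms4a7 at 0.124 ± 0.0445 CPM per kb followed, each above the next in 16 of 16. The alpha chain H2-Aa was thus below its partner H2-Ab1 per kilobase although their proteins pair. Without division by length, H2-Aa averaged 1.41 CPM and H2-Ab1 2.39 CPM over all libraries. The order per kilobase depends on the exon union, 3.8 kb for H2-Aa and 2.57 kb for H2-Ab1. The lengths of the transcripts in use were not measured.

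**Figure D1:**
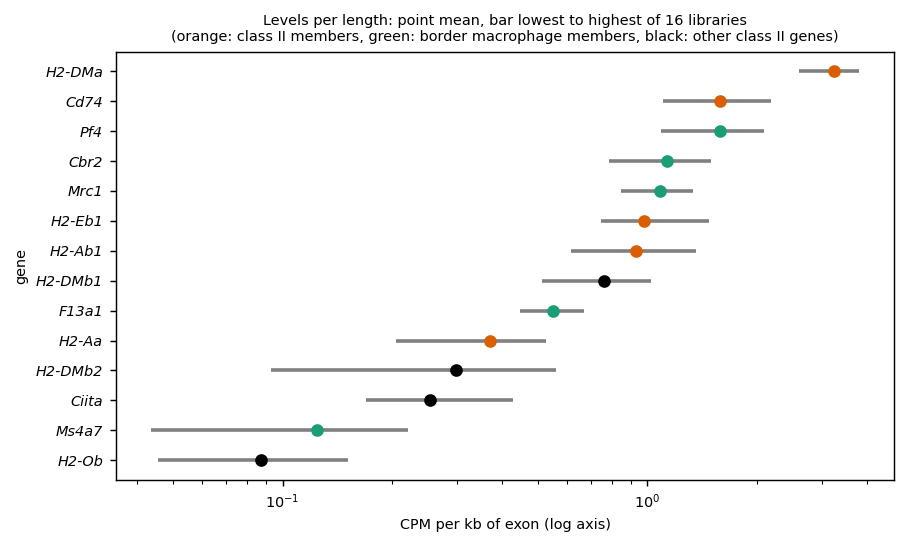
Level of each gene in CPM per kilobase of exon, with the point at the mean and the bar from the lowest to the highest of the 16 libraries. H2-DMa is above all others, and Cd74 and Pf4 overlap at a mean of 1.58 CPM per kb. Among the class II and border macrophage genes followed, Ms4a7 is lowest at a mean of 0.124 CPM per kb. H2-Ob, another class II gene, has a lower mean of 0.0875 CPM per kb.

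Cd74 (chromosome 18), the invariant chain, did not pass in any comparison. It measured 2.7, 2.03, 2.39 and 2.35 CPM in saline-saline, 2.85, 1.92, 3.67 and 2.09 CPM in LPS-saline, 2.41, 3.12, 3.22 and 3.13 CPM in the saline-LPS mice and 2.73, 1.84, 3.48 and 2.65 CPM in LPS-LPS, from 54 to 130 counts per library. The groups overlapped, although replicates 2 to 4 of saline-LPS exceeded every saline-saline library, and the spread was wide within both prenatal LPS groups. Prenatal saline mice averaged 2.67 ± 0.443 CPM and prenatal LPS mice 2.65 ± 0.684 CPM (SD, n = 8 each). The averaged prenatal difference was 0.00 ± 0.14 on the log2 scale (SE; 95% interval -0.29 to 0.30; adjusted p = 0.992), an interval that spans folds of 0.818 to 1.23. Saline-LPS against saline-saline gave 0.32 ± 0.20 (interval -0.09 to 0.74, adjusted p = 1), and averaged pubertal LPS gave 0.17 ± 0.14 (interval -0.12 to 0.47, adjusted p = 0.966).

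H2-Aa (GRCm38 chr17:34282744-34287823) encodes the alpha chain of the I-A molecule, and its neighbour H2-Ab1 (chr17:34257689-34269419) the beta chain. H2-Aa measured 1.6, 1.1, 1.33 and 1.93 CPM in saline-saline, 0.78, 1.22, 1.44 and 1.7 CPM in LPS-saline, 0.969, 1.24, 1.56 and 1.44 CPM in the saline-LPS mice and 2, 1.15, 1.58 and 1.46 CPM in LPS-LPS, from 23 to 63 counts. No group stood apart. The prenatal difference was 0.02 ± 0.17 (interval -0.34 to 0.37, adjusted p = 0.972) and the pubertal one 0.04 ± 0.17 (interval -0.31 to 0.39, adjusted p = 0.992), both on the log2 scale.

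H2-Ab1 had the largest log2 difference of the 5 class II genes, and it lay on the pubertal side. It measured 1.76, 1.58, 2.41 and 2.6 CPM in saline-saline, 2.34, 1.68, 2.31 and 1.89 CPM in LPS-saline, 2.03, 3.15, 3.31 and 3.5 CPM in the saline-LPS mice and 2.79, 2.47, 2.47 and 1.99 CPM in LPS-LPS, from 49 to 114 counts. Replicates 2 to 4 of saline-LPS were above every saline-saline library, and replicate 1, which also carried the Gh signal, was not. Group means were 2.09 ± 0.494, 2.06 ± 0.322, 3 ± 0.66 and 2.43 ± 0.332 CPM in that order. The pubertal difference averaged 0.38 ± 0.14 on the log2 scale (interval 0.10 to 0.67, a 1.3-fold difference, adjusted p = 0.908), and saline-LPS against saline-saline gave 0.52 ± 0.19 (interval 0.13 to 0.92, adjusted p = 1). Both missed the threshold after adjustment over 18875 genes. The prenatal difference was -0.16 ± 0.14 (interval -0.45 to 0.12, adjusted p = 0.525). With any 1 library left out the pubertal difference ranged from 0.33 to 0.46 with adjusted p from 0.15 to 1, and without saline-LPS 1 it was 0.46.

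H2-Eb1 (chr17:34305867-34316674) encodes the beta chain of the I-E molecule, whose alpha chain C57BL/6 mice do not make. It measured 1.92, 1.94, 1.83 and 2.06 CPM in saline-saline, 2.24, 1.45, 1.47 and 1.82 CPM in LPS-saline, 1.88, 1.54, 2.08 and 2.15 CPM in the saline-LPS mice and 2.85, 1.88, 1.83 and 1.46 CPM in LPS-LPS, from 41 to 90 counts. The highest and the lowest of the LPS-LPS libraries enclosed all the other libraries except LPS-saline 2. The pseudogene of its alpha partner, H2-Ea-ps, had 0 counts in 16 libraries, which allows at most 3 counts in each. The prenatal difference of H2-Eb1 was -0.05 ± 0.14 (interval -0.33 to 0.24, adjusted p = 0.883) and the pubertal one 0.10 ± 0.14 (interval -0.19 to 0.39, adjusted p = 0.991), on the log2 scale.

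H2-DMa (chr17:34119541-34139101), the alpha chain of the peptide exchanger, was the most counted of the genes, with 255 to 506 counts per library. It measured 11.4, 9.01, 10.2 and 11.3 CPM in saline-saline, 12.7, 13.1, 11.2 and 9.85 CPM in LPS-saline, 10, 11.8, 11.4 and 10.3 CPM in the saline-LPS mice and 10.8, 11.6, 12.9 and 11.4 CPM in LPS-LPS. The groups overlapped. Prenatal saline mice averaged 10.7 ± 0.939 CPM and prenatal LPS mice 11.7 ± 1.13 CPM (SD, n = 8 each), a log2 difference of 0.13 ± 0.07 (interval -0.01 to 0.28, adjusted p = 0.275). Its value is uncertain, because 360 of its exonic bases overlap exons of Brd2 on the opposite strand, Brd2 held 130106 counts over the 16 libraries, and the strand setting of the counting is not given in the sources used here.

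**Figure D2:**
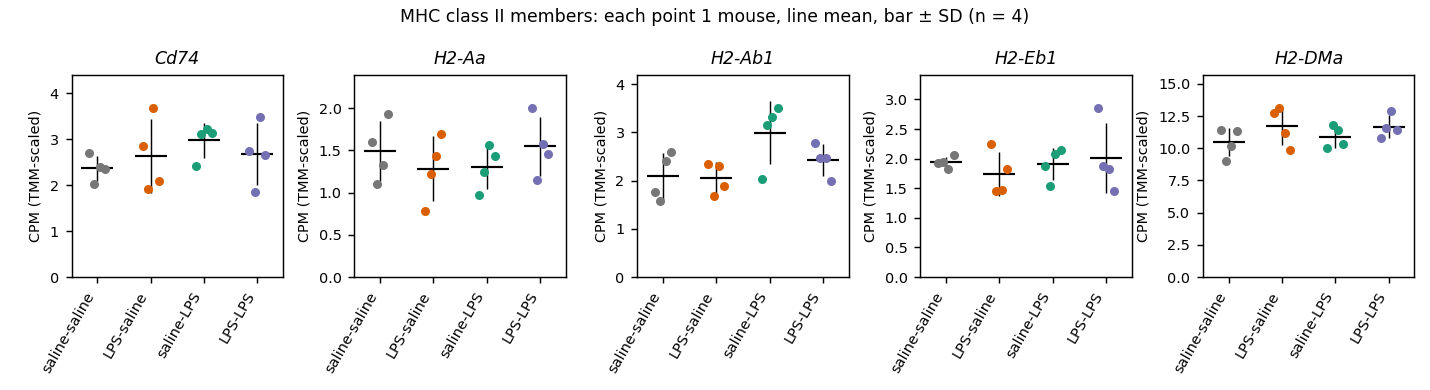
CPM of the 5 class II genes in each library by group, with group means and SD (4 mice per group). Groups overlap for every gene, and for Cd74 and H2-Ab1 3 of 4 saline-LPS libraries lie above all saline-saline libraries.

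Across the class II genes the prenatal log2 differences ran from -0.16 to 0.13 with a median of 0.00, beside a median of -0.005 over all tested genes, and 3 of 5 were above 0. All 5 of their 95% intervals lay within 0.5 of 0 on the log2 scale. The pubertal differences ran from 0.02 to 0.38 with a median of 0.10, beside 0.001 over all genes. All 5 were above 0, and 4 of 5 intervals lay within 0.5 of 0. Between LPS-LPS and saline-saline the median was 0.16, beside 0 over all genes, again with all 5 above 0. The 5 genes summed to 15.7 to 20.2 CPM in saline-saline, 17.3 to 21 CPM in LPS-saline, 17.3 to 21.6 CPM in the saline-LPS mice and 18.9 to 22.2 CPM in LPS-LPS, ranges that overlapped throughout.

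Among the border macrophage genes, Mrc1 (chr2:14229392-14332057), the mannose receptor that takes up glycoproteins, was the one on which a single library decided a call. It measured 5.69, 7.91, 5.38 and 5.62 CPM in saline-saline, 7.22, 6.89, 7.33 and 5.83 CPM in LPS-saline, 6.69, 7.58, 6.5 and 6.87 CPM in the saline-LPS mice and 8.47, 7.51, 7.12 and 7.64 CPM in LPS-LPS, from 151 to 267 counts. Saline-saline 2 lay far above the other libraries of its group and inside the LPS-LPS range. LPS-LPS averaged 7.68 ± 0.568 CPM and saline-saline 6.15 ± 1.18 CPM (SD, n = 4 each), a log2 difference of 0.32 ± 0.12 (interval 0.08 to 0.57, 1.25-fold, adjusted p = 0.103). Without saline-saline 2 that difference was 0.47 with adjusted p = 0.0302, which passed, in a fit where 2.03% of all genes passed. The averaged prenatal difference was 0.15 ± 0.08 (interval -0.02 to 0.33, adjusted p = 0.285) and the pubertal one 0.17 ± 0.08 (interval -0.01 to 0.34, adjusted p = 0.951).

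Ms4a7 (chr19:11321039-11336146), a membrane-spanning protein that distinguishes border macrophages from microglia, had the largest prenatal differences of the 10 genes and the fewest reads. Its counts were 19, 15, 7 and 19 in saline-saline, 18, 16, 26 and 13 in LPS-saline, 10, 13, 14 and 13 in saline-LPS and 31, 21, 25 and 22 in LPS-LPS. In CPM these were 0.508, 0.448, 0.194 and 0.61, then 0.61, 0.415, 0.733 and 0.502, then 0.313, 0.488, 0.455 and 0.399, and finally 0.983, 0.692, 0.791 and 0.728. Every LPS-LPS library exceeded every library of saline-saline and of saline-LPS, whereas LPS-saline overlapped both. Groups did not overlap, in either direction, for 17.4% of all genes between LPS-LPS and saline-saline and for 7.94% between LPS-LPS and saline-LPS.

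The averaged prenatal difference of Ms4a7 was 0.66 ± 0.22 on the log2 scale (interval 0.21 to 1.11, 1.58-fold, adjusted p = 0.0633), from 0.427 ± 0.127 CPM in prenatal saline and 0.682 ± 0.176 CPM in prenatal LPS mice (SD, n = 8 each). Of the 8 prenatal LPS libraries, 7 lay above the prenatal saline median and 5 above the highest prenatal saline library. LPS-LPS against saline-LPS gave 0.95 ± 0.30 (interval 0.32 to 1.59, adjusted p = 0.16) and LPS-LPS against saline-saline 0.87 ± 0.30 (interval 0.25 to 1.48, adjusted p = 0.0832). LPS-saline against saline-saline gave 0.37 ± 0.31 (adjusted p = 0.671), and the interaction 0.58 ± 0.44 (interval -0.32 to 1.49, adjusted p = 1). These comparisons share groups, so they are not separate evidence. None passed.

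The within-group coefficient of variation of Ms4a7 was 26.6%, and counting error alone gives 25.5% as the root mean square over its libraries, which held 17.6 counts on average. Its prenatal difference was smaller with a fibroblast covariate and moved less under the other changes tried. With the level of 12 meningeal fibroblast genes as a covariate the averaged prenatal difference was 0.38 (adjusted p = 0.49), in a fit that called 63 genes rather than 1476, and that between LPS-LPS and saline-saline was 0.46 (adjusted p = 0.633). Some of the 12 fibroblast genes rose with averaged prenatal LPS themselves, so the part of fibroblasts in Ms4a7 was not tested by this covariate. Within libraries with Gabra6 under 1 CPM the averaged prenatal difference was 0.59 and within the other libraries 0.50. Each of these fits left 1 mouse in a group, LPS-LPS 2 in the first and saline-saline 4 in the second. Without LPS-LPS 3, whose Xist goes against its label, the averaged prenatal difference was 0.66 (adjusted p = 0.105), and without LPS-LPS 1, the library with Gh, it was 0.60 (adjusted p = 0.123). With saline-saline 3, the library at 7 counts, left out it was 0.53, the lowest of the 16 such fits, whose adjusted p ran from 0.0582 to 0.14.

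F13a1 (chr13:36867178-37050244), the A chain of clotting factor XIII, which macrophages also make, measured 3.02, 3.55, 3.52 and 3.53 CPM in saline-saline, 3.56, 3.03, 4.12 and 3.44 CPM in LPS-saline, 3.69, 4.51, 4.03 and 3.93 CPM in the saline-LPS mice and 3.9, 3.89, 4.4 and 3.31 CPM in LPS-LPS, from 89 to 146 counts. Every saline-LPS library exceeded every saline-saline library, a separation in either direction seen for 1.54% of all genes. That difference was 0.24 ± 0.13 on the log2 scale (interval -0.02 to 0.51, adjusted p = 1) and the averaged pubertal one 0.19 ± 0.09 (interval 0.00 to 0.37, adjusted p = 0.951). The averaged prenatal fold was 0.999 (95% interval 0.878 to 1.14, adjusted p = 0.997).

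Pf4 (chr5:90772435-90773383) encodes a chemokine of platelets that border macrophages also carry. It measured 0.908, 0.896, 1.14 and 0.9 CPM in saline-saline, 1.08, 1.27, 1.13 and 1.08 CPM in LPS-saline, 1.5, 0.788, 1.33 and 1.2 CPM in the saline-LPS mice and 1.24, 1.42, 1.3 and 1.03 CPM in LPS-LPS, from 21 to 49 counts. The saline-saline libraries were mostly low, but saline-LPS held both the highest and the lowest of the 16. LPS-LPS against saline-saline gave 0.37 ± 0.20 on the log2 scale (interval -0.05 to 0.79, adjusted p = 0.296) and the averaged prenatal comparison 0.14 ± 0.14 (interval -0.15 to 0.44, adjusted p = 0.596). Other platelet genes were present at unequal levels. Gp6 was at 0 in 14 of 16 libraries and the platelet chemokine Ppbp averaged 0.0742 CPM, while Itga2b averaged 3.7 CPM, Itgb3 4.55 CPM and Gp1bb 24.5 CPM. The 10 platelet and megakaryocyte genes summed to 30.4 to 35.6 CPM in saline-saline, 28.7 to 36.5 CPM in LPS-saline, 29.5 to 34.4 CPM in the saline-LPS mice and 38.2 to 40.1 CPM in LPS-LPS, of which Gp1bb made 24.5 CPM on average. Of 4 tested 1 rose with averaged prenatal LPS (4.9% of all tested genes did), Gp1bb by 0.23 (adjusted p = 0.0228). Gp1bb also rose between LPS-LPS and saline-saline, by 0.39 (adjusted p = 0.0109). In each of these comparisons only 2 of the 4 were above 0, with median log2 differences of 0.05 and 0.01. The part of the platelet genes in Pf4 was not tested.

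Cbr2 (chr11:120729489-120732114), a carbonyl reductase, measured 1.04, 1.37, 1.58 and 1.12 CPM in saline-saline, 1.7, 1.48, 1.97 and 1.12 CPM in LPS-saline, 1.66, 1.46, 1.53 and 1.41 CPM in the saline-LPS mice and 1.24, 1.81, 1.77 and 1.69 CPM in LPS-LPS, from 29 to 70 counts. The groups overlapped. LPS-LPS against saline-saline gave 0.34 ± 0.20 (interval -0.06 to 0.75, adjusted p = 0.323) and the averaged prenatal comparison 0.20 ± 0.14 (interval -0.09 to 0.49, adjusted p = 0.419), on the log2 scale.

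**Figure D3:**
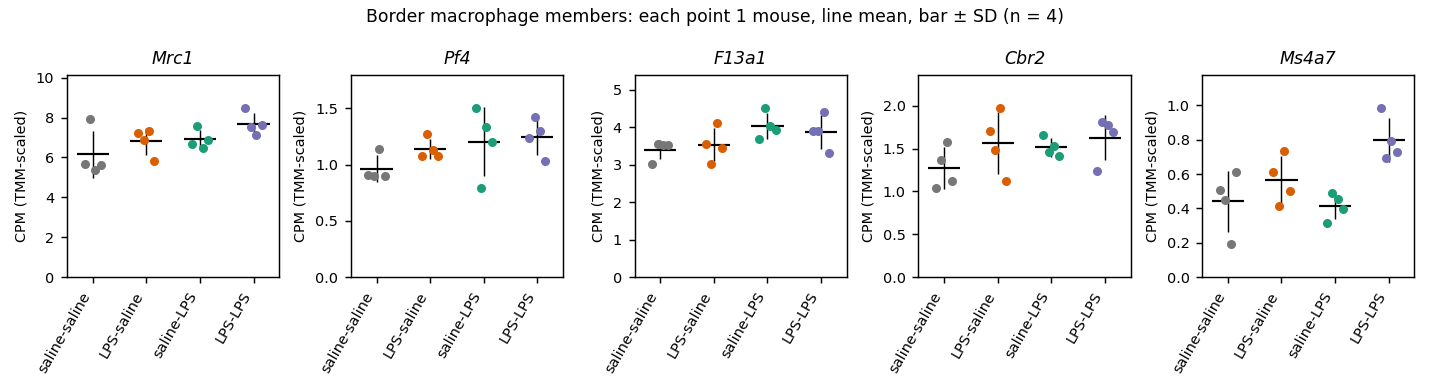
CPM of the 5 border macrophage genes in each library by group, with group means and SD (4 mice per group). Every LPS-LPS library of Ms4a7 is above every saline-saline and saline-LPS library, and saline-saline 2 stands above its group for Mrc1 at 7.91 CPM.

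For the 5 border macrophage genes the averaged prenatal log2 differences had a median of 0.15 and 4 were above 0. The averaged pubertal differences had a median of 0.19 and all 5 were above 0, and between LPS-LPS and saline-saline the median was 0.34, again with all 5 above 0. The medians over all tested genes were -0.005, 0.001 and 0. The same RNA gives all these values, so the genes are not independent replicates. Their summed level was 11.2 to 14.2 CPM in saline-saline, 12 to 15.3 CPM in LPS-saline, 13.8 to 14.8 CPM in the saline-LPS mice and 14.4 to 15.8 CPM in LPS-LPS.

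**Figure D4:**
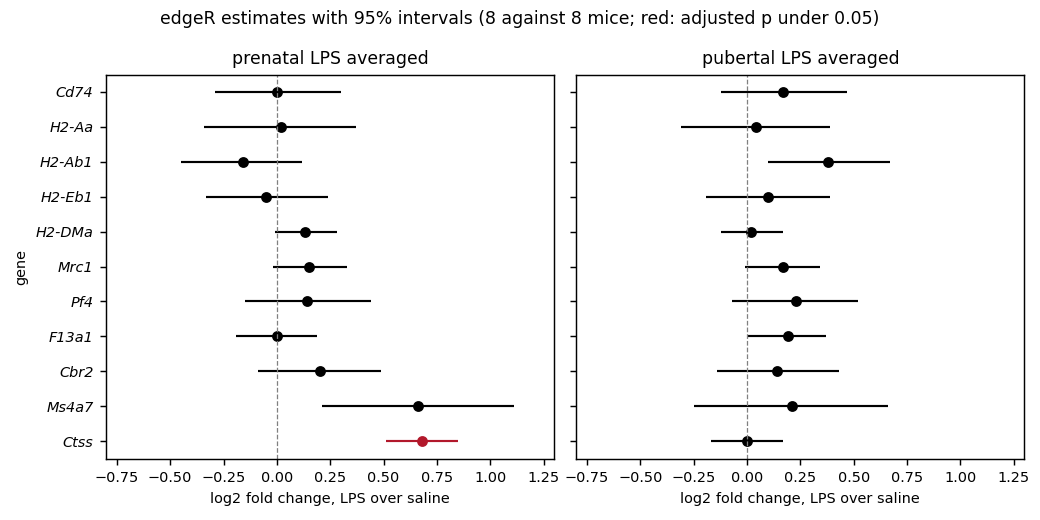
Log2 fold change with its 95% interval for the 10 genes and the class II pathway gene Ctss, for averaged prenatal and averaged pubertal LPS. Among the 10, the Ms4a7 interval for prenatal LPS (0.21 to 1.11) starts above 0. For pubertal LPS those of H2-Ab1 (0.10 to 0.67) and F13a1 (0.00 to 0.37) start at or above 0. The other intervals of the 10 genes start below 0, and none of the 10 passed after adjustment. Ctss passed for prenatal LPS with edgeR (interval 0.51 to 0.85, adjusted p = 0.000239).

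Other genes of the class II pathway were read from a list of 18, of which 15 were tested. H2-Oa with 68 counts, H2-Eb2 with 20 counts and H2-Ea-ps with 0 counts over 16 libraries were too low. For averaged prenatal LPS 1 of the 15 rose (4.9% of all tested genes did) and none fell (2.92%), with a median log2 difference of 0.09. The gene that rose was Ctss, the cathepsin that cleaves the invariant chain and that microglia also make in quantity. It measured 27 to 43.7 CPM (median 34.7) in the 8 prenatal saline libraries and 47.6 to 63.5 CPM (median 57) in the 8 prenatal LPS libraries, without overlap, as for 0.906% of all tested genes. The difference was 0.68 ± 0.08 on the log2 scale (1.6-fold, adjusted p = 0.000239), while its substrate Cd74 measured 0.00 ± 0.14 in the same comparison. Ctss also rose in LPS-saline against saline-saline (0.61, adjusted p = 0.0389) and in LPS-LPS against saline-LPS (0.75, adjusted p = 0.00549).

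LPS-LPS against saline-saline added Lgmn, a lysosomal endopeptidase, which rose by 0.18 (adjusted p = 0.0368), and March8, a ubiquitin ligase that removes membrane proteins from the surface, which fell by 0.21 (adjusted p = 0.0417), so that 2 of 15 rose with Ctss counted and 1 fell, beside 4.27% and 2.29% of all tested genes. No gene of the list passed for averaged pubertal LPS, where 1 had an unadjusted p under 0.05. Ciita, the master transactivator of class II genes, measured 2.61 ± 0.872 CPM in prenatal saline and 2.2 ± 0.424 CPM in prenatal LPS mice (SD, n = 8 each), a log2 difference of -0.26 ± 0.17 (adjusted p = 0.385). Its partners Rfx5 at -0.01, Rfxank at 0.05 and Rfxap at 0.11 did not pass. The beta chains H2-DMb1 at 0.13 and H2-DMb2 at 0.46 (adjusted p = 0.63 and 0.304) are near-identical copies. Reads that align to both would be among the not unique reads left out, so both counts may be too low.

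Of 18 further border macrophage genes 14 were tested with edgeR and none passed in any comparison; 3 had an unadjusted p under 0.05 for averaged prenatal LPS, a share near the 23.2% of all tested genes. Their median prenatal log2 difference was 0.02 with 9 of 14 above 0, and the median between LPS-LPS and saline-saline was 0.12 with 11 of 14 above 0. Siglec1, a sialic acid-binding lectin, measured 0.40 ± 0.19 (adjusted p = 0.212) and the lectin Cd209f 0.52 (adjusted p = 0.178). The hyaluronan receptor Lyve1 measured -0.23 (adjusted p = 0.337), the haemoglobin scavenger receptor Cd163 0.06 (adjusted p = 0.828) and the lectin Mgl2 -0.39 (adjusted p = 0.48). Stab1, Maf, Dab2 and Colec12 of this list are also made by other brain cells.

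Markers of other cells that can carry these genes were read in the same libraries. Each list held members at or near 0 and members present in every library. The B cell gene Ms4a1 was at 0 in 7 of 16 libraries, while Ebf1 averaged 5.66 CPM. Of the dendritic cell genes Xcr1 was at 0 in 10 of 16, while Zbtb46 averaged 11.9 CPM, Flt3 10.1 CPM and Snx22 5.68 CPM. Of the T cell genes Cd3g had 0 to 2 counts per library, while Cd4 averaged 7.51 CPM, Trbc2 5.89 CPM and Lck 1.78 CPM. The 10 B and plasma cell genes summed to 18.5 to 22.4 CPM in saline-saline, 21 to 24.6 CPM in LPS-saline, 21.8 to 25.6 CPM in the saline-LPS mice and 21 to 24.4 CPM in LPS-LPS, of which Ighm made 14.2 CPM on average. The 10 T and NK cell genes summed to 12 to 18.8 CPM and the 10 dendritic cell genes to 26.3 to 34.7 CPM over all libraries. None of the tested members of these lists (6, 4 and 5) passed with edgeR for averaged prenatal LPS, where 2, 1 and 1 had an unadjusted p under 0.05, as 23.2% of all tested genes had. The 10 monocyte and neutrophil genes summed to 1.11 to 4.22 CPM in saline-saline, 3.07 to 6.22 CPM in LPS-saline, 1.31 to 4.74 CPM in the saline-LPS mice and 2.86 to 5.72 CPM in LPS-LPS; of 5 tested none passed for averaged prenatal LPS, 2 had an unadjusted p under 0.05 (23.2% of all tested genes), and their median was 0.50. Of 12 meningeal fibroblast genes 4 rose with averaged prenatal LPS (Slc22a6, Mgp, Foxc1 and Dcn), beside 4.9% of all tested genes, with a median of 0.22 and 11 of 12 above 0, and summed to 219 to 270 CPM in saline-saline, 234 to 266 CPM in LPS-saline, 228 to 268 CPM in the saline-LPS mice and 243 to 274 CPM in LPS-LPS. Of 14 microglial genes 1 rose in that comparison, Aif1, by 0.42 (adjusted p = 0.0128), a count near the 4.9% of all tested genes. The part of these cells in the values of the 10 genes was not tested. The fibroblast covariate given for Ms4a7 is no such test, because its genes themselves differed with averaged prenatal LPS.

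No block of genes varying together from mouse to mouse was detected among the 10. Deviations of log2(CPM + 0.5) from the group means were correlated over 16 libraries for 45 pairs of genes, and no pair passed after Benjamini-Hochberg adjustment. The 10 pairs within class II had a median Pearson r of 0.28 (from -0.17 to 0.47), the 10 pairs within the border macrophage genes 0.20 (from -0.50 to 0.38) and the 25 pairs between them 0.07 (from -0.61 to 0.57). The invariant chain and the beta chain, Cd74 and H2-Ab1, gave r = 0.47 (permutation p = 0.0656, adjusted 0.492) and rho = 0.37 (permutation p = 0.163, adjusted 0.564), and r = 0.55 without the 2 libraries farthest from the median. H2-Aa and Cbr2 gave r = -0.61 (permutation p = 0.0126, adjusted 0.443) and rho = -0.65 (permutation p = 0.00814, adjusted 0.366), and r = -0.53 without 2 libraries. H2-Ab1 and F13a1 gave r = 0.57 (permutation p = 0.0227, adjusted 0.443) and rho = 0.40 (permutation p = 0.125, adjusted 0.564), and r = 0.67 without 2 libraries. Counting error, given as the root mean square over libraries, was an unequal part of the spread. The within-group coefficient of variation was 24.5% for H2-Aa with 15.4% from counting and 21.5% for Cd74 with 11.1%. It was 11.9% for Mrc1 with 6.81% and 16% for Pf4 with 16.9%. As variances, counting error was the smaller part for H2-Aa, Cd74 and Mrc1, while for Pf4 it was as large as the spread. Counting error weakens correlations, so shared variation of scarce genes may have been missed.

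**Figure D5:**
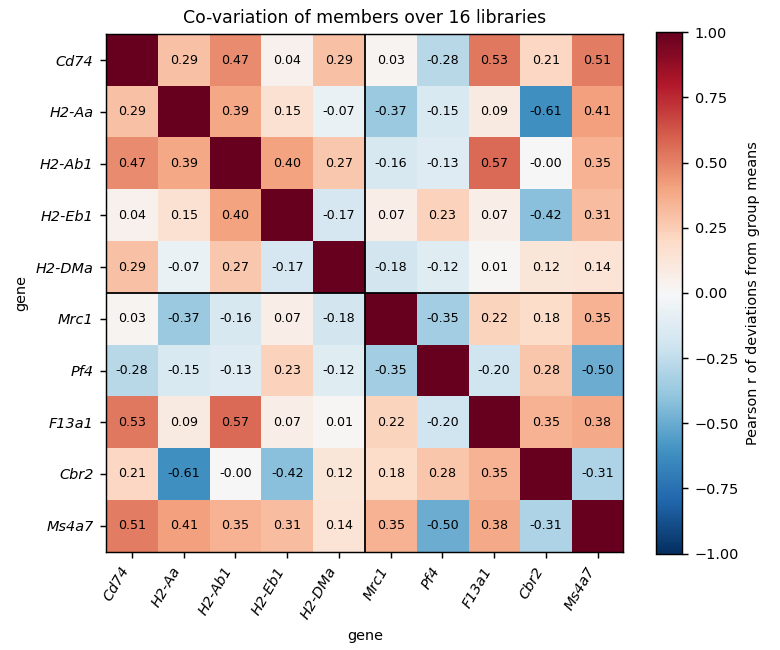
Pearson r between deviations from group means over 16 libraries for the 45 pairs of genes. Pairs range from -0.61 (H2-Aa and Cbr2) to 0.57 (H2-Ab1 and F13a1), and neither class forms a block of high values.

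The genes whose deviations were most like those of Cd74, among 15223 genes that averaged 1 CPM or more, ranked by Spearman rho over the 16 libraries, were Polr1c at 0.91, Rpl12 at 0.91, Rps10 at 0.90, Islr at 0.89 and Myh15 at 0.87. None of them belongs to class II. Predicted genes were compared but not named. For Mrc1 the named genes were Dok4 at 0.82, Ccdc9b at 0.82, Il18 at 0.79, Acot5 at 0.78 and Col6a3 at 0.77, with 2 predicted genes ranked among them and passed over, each lower than the likeness seen for Cd74. The points share libraries and depth, and the highest values of so many genes are high by selection, so these stand as a description.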

How the data were processed

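Brain libraries of 16 mice were used. The authors deposited whole-number read counts per Ensembl gene, and the submitters' processing notes name STAR 2.5.2b, HTSeq 0.11.2 and the build GRCm38; a strand setting or annotation release is not given in the sources used here. Special entries (no feature 8.37 to 11%, ambiguous 5.11 to 5.48%, not unique 3.18 to 3.9% of all counts) were left out. Symbols came from GENCODE M21 (49412 of 49671 matched).

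Genes were filtered with filterByExpr, scaled by TMM and tested in R 4.3.3 with edgeR 4.0.16 (robust quasi-likelihood, 4 groups, 16 libraries, two-sided, Benjamini-Hochberg over 18875 genes, threshold 0.05). CPM values are TMM-scaled. The common biological coefficient of variation was 10.4%. In simulated data for averaged prenatal LPS on 18875 genes, 88% of changes of 1 and 73% of changes of 0.5 log2 were recovered, with 6 false calls. For LPS-saline against saline-saline the shares were 85% and 60%, with 7 false calls. The changed genes were drawn at random from genes of many levels, so these shares do not give the recovery for the 10 genes. Alternatives used RLE scaling, DESeq2 1.42.0, no filter, each library left out, a replicate block, an exonic length offset, a cerebellar term, a meningeal fibroblast covariate, or only the groups compared. Deviations of same-numbered libraries correlated above 0.1 in every pair for LPS-saline against saline-saline (0.138 to 0.599), LPS-LPS against saline-LPS (0.294 to 0.386) and LPS-LPS against LPS-saline (0.181 to 0.346), but not for LPS-LPS against saline-saline (from 0.0143) or saline-LPS against saline-saline (from 0.0317). Correlations used 100000 permutations.

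Genes and lists were chosen with earlier results of these data known. All 10 genes are named; from lists with calls, up to 4 genes by p, any gene of the class II and border macrophage lists, and, of other lists, genes at 0 or highest. Counting floors cover counting error only, since reads carry no molecular identifiers.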

Additional observations from a re-analysis of the deposited data

Results flagged for a closer look

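In 4 of the 40 sets of 4 libraries (10 genes in 4 groups), 1 library lay far from the other 3 past the 95% critical value of Dixon's ratio. Chance gives about 1 in 20. Mrc1 measured 7.91 CPM in saline-saline 2, and 5.38 to 5.69 CPM in the rest of that group. Pf4 measured 1.14 CPM in saline-saline 3, and 0.896 to 0.908 CPM in the rest. F13a1 measured 3.02 CPM in saline-saline 1, and 3.52 to 3.55 CPM in the rest. Cd74 measured 2.41 CPM in saline-LPS 1, the library with 44.1 CPM of Gh, and 3.12 to 3.22 CPM in the rest. The saline-saline group held 3 of the 4, each in a different library.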

How the results depend on the processing

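The number of the 10 genes called was 0 in each of the 8 comparisons under every alternative run, except that LPS-LPS against saline-saline ranged from 0 to 1 with 1 library left out: without saline-saline 2 Mrc1 passed. With the replicate block 0 genes were called in each comparison, so it changed no call. Of 1910 single-gene values recomputed, 1 gained a call, none lost or reversed one, and 65 changed sign, none of them called. DESeq2 gave no adjusted p for 10 of its 80 tests of these genes (of Ms4a7, H2-Aa and Pf4), so no call was possible there.

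Counts over all genes moved more than the calls of the 10. For averaged prenatal LPS, 1476 genes became 571 with the length offset, 63 with the fibroblast covariate, 2271 with DESeq2, 2358 with the cerebellar term, 2495 with the replicate block, and 700 to 1645 with 1 library left out; without LPS-saline 1 it was 700. Fits within libraries with Gabra6 under 1 CPM, and within the others, left 1 mouse in a group, so their counts are not compared. For LPS-LPS against saline-saline, 1238 became 12 with the fibroblast covariate, 365 with the length offset, 1988 with DESeq2, 2185 with the replicate block, 2271 with only those groups, and 297 (without LPS-LPS 3) to 1981 (without saline-LPS 1). For LPS-saline against saline-saline, 34 became 9 with the covariate, 15 with the length offset, 127 without a filter, 233 with only those groups, 340 with the cerebellar term, 409 with the replicate block, 431 with DESeq2 and 7 to 391 with 1 library left out. For LPS-LPS against saline-LPS, 115 became 20 with the covariate, 29 with only those groups, 30 with the length offset, 178 without a filter, 342 with the cerebellar term, 326 with the block, 413 with DESeq2 and 22 to 126 with 1 left out. For LPS-LPS against LPS-saline, 0 became up to 9, with DESeq2, for averaged pubertal LPS up to 10, without saline-LPS 1, and for saline-LPS against saline-saline up to 3, also without saline-LPS 1. The cause was not tested. Depth limits Ms4a7 most, at 7 to 31 counts per library.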
